A study of Mus musculus with 4 samples.

Results

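Granulocyte-monocyte progenitors are bone marrow cells that normally give rise to neutrophils and monocytes, whereas genes of B cells, T cells and natural killer (NK) cells mark other blood lineages. This account describes 7 such lymphoid genes in RNA-seq libraries of these progenitors from wild-type and MST1-deficient mice: Rasgrp1, Klrc1, Ncr1, Vpreb3, Tnfrsf13b, Slamf7 and Irf4. They were found by their NCBI gene numbers and had 11 unannotated transcripts among 8219 listed in any library, and were 7 of 5059 annotated genes with such transcripts, where unannotated means that the submitters' files number the transcript as lying outside the reference annotation. The 7 genes were chosen by earlier results on the difference between the groups in these same libraries, so their differences between the groups are given as values, without a test.

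There were 2 libraries per genotype, each made from the pooled progenitors of 10 mice. The wild-type group carried the wild-type genotype and the other group was MST1-deficient; all cells came from bone marrow, were kept in medium with serum and received no drug. The allele, strain, sex and age of the mice, and the sorting gate, are not given by the sources used here. MST1 was taken to be the Hippo pathway kinase that the mouse gene Stk4 encodes.

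RasGRP1 activates Ras when diacylglycerol accumulates below antigen receptors, and it is best known in T cells. Klrc1 encodes NKG2A, an inhibitory lectin-like receptor that pairs with the CD94 chain encoded by Klrd1, and Ncr1 encodes NKp46, an activating receptor of NK cells and related innate lymphoid cells. Vpreb3 encodes a chaperone-like protein of early B cells, Tnfrsf13b encodes TACI, a B cell receptor for the cytokines BAFF and APRIL, Slamf7 encodes a self-binding receptor of NK and plasma cells, and Irf4 encodes a transcription factor of B, plasma, T and dendritic cells.

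The libraries listed between 6517 and 6774 unannotated transcripts, with between 928977 and 1079382 estimated counts in all. Values are in FPKM (fragments per transcript length and library total) unless counts are named. Annotated transcripts were not analysed here, so a low value says nothing about the gene as a whole. Of 19 marker genes of the progenitors, 4 had unannotated transcripts, and their summed FPKM was 121 and 94.4 in wild-type libraries 1 and 2 and 121 and 116 in MST1-deficient libraries 1 and 2. Genes of the Y chromosome moved with genotype: the summed FPKM of Kdm5d, Uty, Ddx3y and Eif2s3y was 3.60 and 0 in wild type against 23.4 and 14.8 in MST1-deficient libraries. The part of a difference in sex between the pools in the values below was not tested. In pooled cells, fewer cells of a type and less RNA per cell cannot be told apart.

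Of the 11 transcripts, 5 were listed in all 4 libraries, 3 in 3 libraries, 2 in 2 libraries and 1 in 1 library. Of the 7 genes, some had values that separated the groups, some differed widely between pools of a group and 1 was level. Rasgrp1, 1 form of Klrc1 and Slamf7 had both wild-type libraries above both MST1-deficient ones, and Ncr1 had the opposite order. The remaining 7 transcripts overlapped between the groups.

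**Figure D1:**
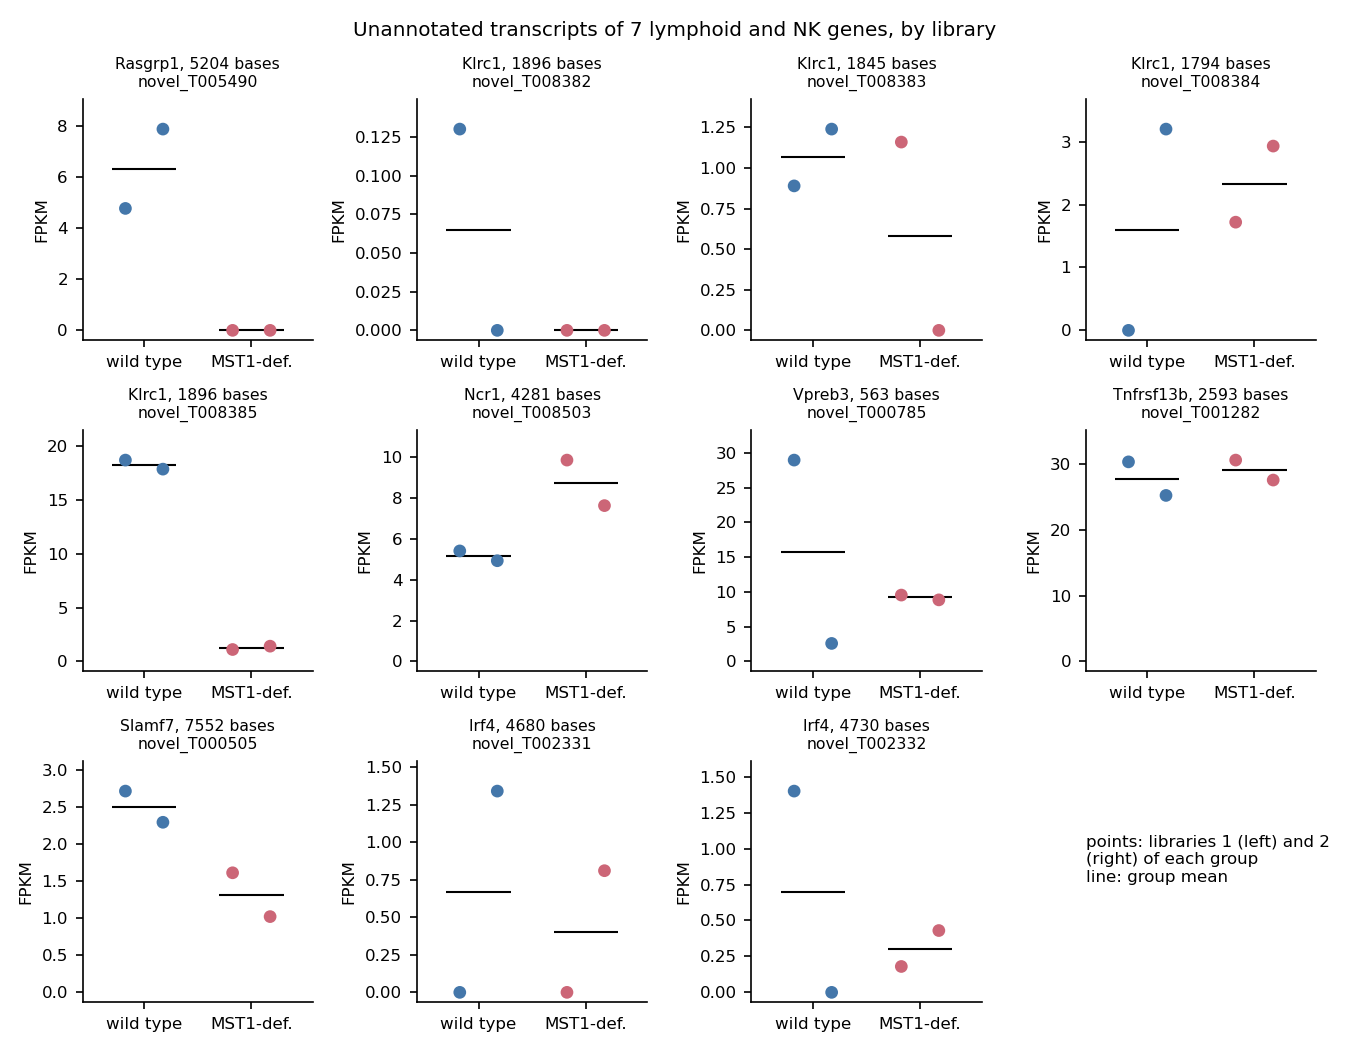
FPKM (vertical axes, linear, a scale for each panel) of the 11 unannotated transcripts of the 7 genes in 2 wild-type (blue) and 2 MST1-deficient (red) libraries; points are libraries 1 and 2 from left to right, and lines are group means. The groups are apart for Rasgrp1, Klrc1 novel_T008385, Slamf7 and Ncr1. The Irf4 and Vpreb3 panels show wide gaps between pools of the same group, for Irf4 novel_T002331 in both groups.

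Among all transcripts that reached 1 FPKM in 2 or more libraries, 19.9% of 4661 had both wild-type libraries above both MST1-deficient ones and 13.7% had the opposite order. With edgeR's quasi-likelihood test and Benjamini-Hochberg adjustment, 0% of these 4661 transcripts and 0% of 3221 gene sums passed an adjusted p of 0.05. An unadjusted p under 0.05 was reached by 245 transcripts and 182 gene sums. DESeq2 called 103 transcripts and 46 gene sums, and limma on log2(FPKM + 0.5) called 6 of each. Summed by gene, Rasgrp1, Klrc1, Slamf7 and Irf4 lay lower in MST1-deficient cells without overlap, Ncr1 lay higher, and Vpreb3 and Tnfrsf13b overlapped; of all gene sums tested, 18.8% were lower and 14.1% higher without overlap. The members were chosen on this contrast, so nothing is read from their count. Of the 11 member transcripts, 8 passed the filter on low values, as did the sums of all 7 genes.

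The start regions are shown for the 4 genes with a transcript whose groups did not overlap, since the account turns on these. Each is the 250 bases before a transcription start that the RefSeq promoter table (GRCm38.p6) gives for the gene, on the gene's strand, from 5′ to 3′. The Slamf7 and Klrc1 windows lie inside the gene spans given below, so they precede a start within the span and not its outer end. Ncr1 had another, overlapping window (4337474 to 4337723) with the same number of RUNX and IRF matches. Capitals mark matches on either strand to the letters TGTGGT, bound by RUNX factors, or AANNGAAA, bound by IRF factors; both families act in lymphoid and myeloid cells.
Rasgrp1, minus strand, chr2:117342878-117343127: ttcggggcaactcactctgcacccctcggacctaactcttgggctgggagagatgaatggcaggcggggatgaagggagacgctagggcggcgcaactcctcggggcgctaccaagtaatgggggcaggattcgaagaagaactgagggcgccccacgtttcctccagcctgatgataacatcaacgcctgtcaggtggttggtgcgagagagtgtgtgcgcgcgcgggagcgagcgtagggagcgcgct
Klrc1, minus strand, chr6:129678974-129679223: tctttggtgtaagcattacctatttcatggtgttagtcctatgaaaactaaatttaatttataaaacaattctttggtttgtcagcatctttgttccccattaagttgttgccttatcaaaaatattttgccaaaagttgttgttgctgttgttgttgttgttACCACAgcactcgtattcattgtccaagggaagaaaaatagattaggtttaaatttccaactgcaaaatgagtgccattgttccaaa
Slamf7, minus strand, chr1:171649000-171649249: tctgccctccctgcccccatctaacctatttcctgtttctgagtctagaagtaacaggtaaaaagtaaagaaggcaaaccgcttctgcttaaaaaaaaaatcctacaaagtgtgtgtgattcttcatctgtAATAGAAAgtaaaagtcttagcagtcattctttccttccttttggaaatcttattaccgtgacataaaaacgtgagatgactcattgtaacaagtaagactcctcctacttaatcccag
Ncr1, plus strand, chr7:4337465-4337714: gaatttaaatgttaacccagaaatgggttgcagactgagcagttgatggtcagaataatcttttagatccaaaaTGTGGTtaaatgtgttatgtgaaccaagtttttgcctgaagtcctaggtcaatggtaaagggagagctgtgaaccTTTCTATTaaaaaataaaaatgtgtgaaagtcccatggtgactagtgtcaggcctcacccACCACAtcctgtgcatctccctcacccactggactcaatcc
The RUNX letters occurred in 14% and the IRF letters in 21.3% of 32851 mouse start regions of the same length. Klrc1 held 1 RUNX match, Ncr1 held 2 RUNX matches and 1 IRF match, and Slamf7 held 1 IRF match. The Rasgrp1 window held neither. Of the members whose transcripts all overlapped, Vpreb3 held 1 RUNX match, and Tnfrsf13b and Irf4 held neither kind. ETS, E-box and T-box letters were searched as well and are left out here. No factor binding was measured.

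Rasgrp1 (gene 19419, chromosome 2, 117279983 to 117342877) was listed in wild-type libraries alone. Its 1 transcript, novel_T005490, had 4.78 and 7.89 FPKM in wild-type libraries 1 and 2, from 193 and 296 estimated counts, and was missing from the lists of both MST1-deficient libraries, where it was set to 0. Against a floor of 3 counts per library it was at least 80.2-fold lower in MST1-deficient cells, a bound for counting error only. Its 5204 bases are 25 bases fewer than the longest of 7 GENCODE models of the gene. Of all listed transcripts, 1.97% were listed in both wild-type libraries alone, and 2.23% in both MST1-deficient libraries alone. The pairings of a wild-type with an MST1-deficient library gave between 1.33% and 2.60%.

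The relatives of Rasgrp1 did not share its order. Rasgrp2, a calcium- and Rap1-linked member of the same exchange factor family, had 93.2 and 80.9 FPKM in wild type against 107 and 124 in MST1-deficient libraries. Its shortest of 3 listed forms, novel_T004730 with 2177 bases, carried most of that, with 74.2, 67.1, 77.5 and 99.1 FPKM in the same order. A form of 2436 bases, novel_T004732, had 7.25 and 7.34 FPKM in wild type against 18.2 and 14.9 in MST1-deficient libraries. Rasgrp4, the family member of mast cells, had 4.52 and 5.38 FPKM against 6.60 and 2.40, with the groups overlapping. No unannotated transcript of Rasgrp3 was listed. Of the 3 listed family members, 1 lay lower, 1 lay higher and 1 overlapped.

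Klrc1 (gene 16641, chromosome 6, 129666015 to 129682852) had 4 unannotated transcripts, more than any other of the 7 genes. The main one, novel_T008385 with 1896 bases, had 18.7 and 17.9 FPKM in wild type (262 and 233 counts) against 1.10 and 1.41 in MST1-deficient libraries (13.4 and 21.3 counts). Its mean was 18.3 ± 0.594 FPKM (SD, n = 2) against 1.26 ± 0.219, a 14.6-fold difference, and the libraries of a group lay close together. The edgeR log2 fold change of this transcript was -3.80 (SE 0.46).

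The groups overlapped for the other 3 forms of Klrc1. The form of 1794 bases, novel_T008384, had 0 and 3.20 FPKM in wild type against 1.72 and 2.93 in MST1-deficient libraries, so that wild-type library 1 alone lacked it. The form of 1845 bases, novel_T008383, had 0.89 and 1.24 FPKM in wild type against 1.16 and 0 in MST1-deficient libraries, so that MST1-deficient library 2 alone lacked it. A second form of 1896 bases, novel_T008382, was listed in wild-type library 1 alone, at 0.13 FPKM from 1.80 counts. Transcripts missing from a single library were common: 15% of all listed transcripts were in 3 libraries and 12.8% in 1.

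The shares of the Klrc1 forms are not a separate result, since they carry the lower values of the main form in MST1-deficient libraries. The main form made up 94.8% and 80.1% of the gene's summed FPKM in wild type against 27.6% and 32.5% in MST1-deficient libraries. The form of 1794 bases made up 0% and 14.4% in wild type against 43.2% and 67.5% in MST1-deficient libraries. The share of the form of 1845 bases overlapped, with 4.52% and 5.56% in wild type against 29.1% and 0%. In MST1-deficient libraries 1 and 2 the shares rest on 46.6 and 63.0 counts over all forms. Summed over its 4 forms, Klrc1 had 21 ± 1.82 FPKM (SD, n = 2) in wild type, against 4.16 ± 0.255 in MST1-deficient cells, a 5.05-fold difference and an edgeR log2 fold change of -2.30 (SE 0.34).

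The lengths of the Klrc1 forms differ in steps that match exons. The forms of 1896 and 1845 bases, and those of 1845 and 1794 bases, differ by 51 bases, and the longest and shortest differ by 102 bases. In the longest GENCODE model of Klrc1, with 7 exons on the minus strand of GRCm38, exon 3 has 51 bases and exon 2 has 102 bases, and every base of both is coding. These exons are shown because they are the pieces whose size fits the differences.
Klrc1 exon 3, chr6:129677765-129677815: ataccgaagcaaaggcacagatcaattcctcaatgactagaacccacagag
Klrc1 exon 2, chr6:129678296-129678397: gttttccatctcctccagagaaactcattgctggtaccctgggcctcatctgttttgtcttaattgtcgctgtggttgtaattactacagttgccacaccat
Across all genes, 3.56% of 4883 pairs of listed transcripts of unequal length differed by the length of an exon of the gene's longest model. The structure of the listed transcripts was not given in the files used here, so a match in length does not show which exon a form lacks.

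**Figure D2:**
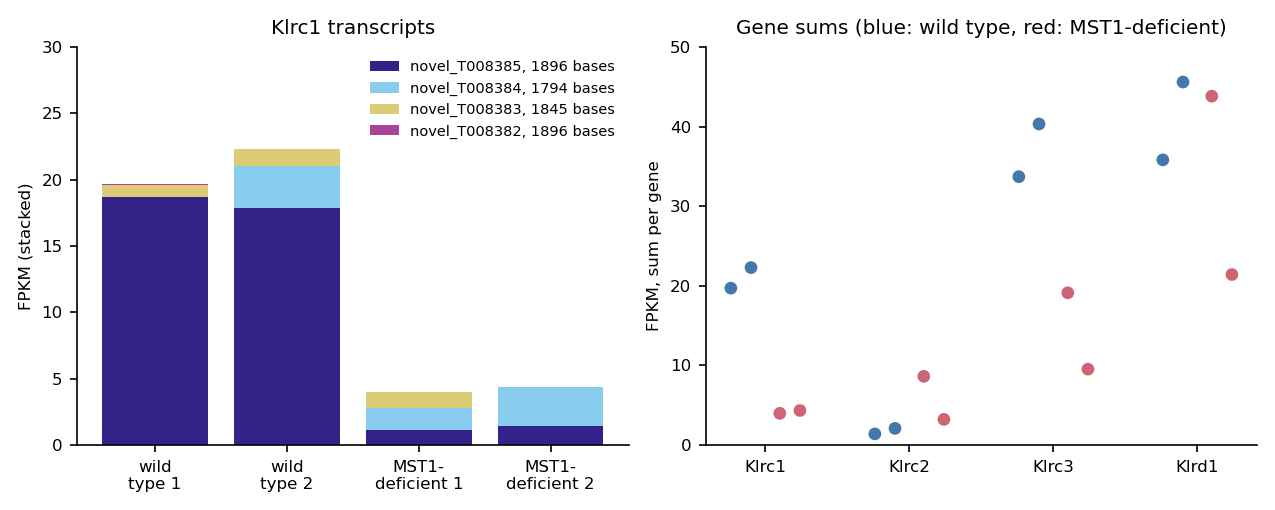
Left, FPKM of the 4 Klrc1 transcripts stacked for each library (linear axis from 0). Right, summed FPKM of Klrc1 and 3 neighbouring receptor genes in 2 wild-type (blue) and 2 MST1-deficient (red) libraries. The 1896-base form novel_T008385 fills most of the wild-type bars, and Klrc2 has the opposite order of the groups to Klrc1 and Klrc3.

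Klrc1 lies beside close relatives, and part of its sequence is shared with them. Of the 2011 distinct 31-base words in the GENCODE transcripts of Klrc1, 49.6% also occur in transcripts of Klrc2 and 6.32% in those of Klrc3. Klrc2, which encodes an activating receptor of the same family, had 1.40 and 2.09 FPKM in wild type against 8.63 and 3.22 in MST1-deficient libraries, the opposite order to Klrc1. Klrc3 had 33.7 and 40.3 FPKM in wild type against 19.1 and 9.53 in MST1-deficient libraries, the same order as Klrc1. The sum of Klrc1 and Klrc2 was 22.8 ± 2.31 FPKM in wild-type and 10.1 ± 3.57 FPKM in MST1-deficient libraries (SD, n = 2), which is 2.26-fold, where Klrc1 alone gave 5.05-fold. In estimated counts the sums of this pair were 301 and 322 in wild-type against 165 and 119 in MST1-deficient libraries. How the estimator divided shared reads was not given, and its part in the Klrc1 values was not tested. With Klrc3 added the sums were 54.8 and 64.7 against 31.7 and 17.1 FPKM. The CD94 partner gene Klrd1 had 35.8 and 45.6 FPKM against 43.8 and 21.4, and its groups overlapped. Both exon sequences printed above occur whole in transcripts of Klrc1 and of no other GENCODE gene.

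Ncr1 (gene 17086, chromosome 7, 4337715 to 4345184) was the member with higher values in MST1-deficient cells. Its transcript novel_T008503 had 5.41 and 4.93 FPKM in wild type (179 and 151 counts) against 9.86 and 7.63 in MST1-deficient libraries (282 and 270 counts). The means were 5.17 ± 0.339 and 8.75 ± 1.58 FPKM (SD, n = 2), a 1.69-fold difference, with 0.80 ± 0.27 (SE) as log2 fold change in edgeR. The lowest MST1-deficient library was 1.41 times the highest wild-type library. With 4281 bases this transcript is 2.86 times as long as the longest of 2 GENCODE models (1495 bases), and 98.5% of 7812 listed transcripts had a lower ratio. No other GENCODE gene overlaps the annotated Ncr1 gene, and no 31-base word of its GENCODE models occurs in another gene's transcripts. Both checks covered the annotated gene only, so additional bases of the listed transcript may lie outside them. What the additional bases of the transcript consist of was not given in the files used here.

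Slamf7 (gene 75345, chromosome 1, 171632403 to 171653037) had low values in the order of Klrc1. Its transcript novel_T000505 had 2.71 and 2.29 FPKM in wild type (160 and 126 counts) against 1.61 and 1.02 in MST1-deficient libraries (82.6 and 64.2 counts). The means were 2.50 ± 0.297 and 1.32 ± 0.417 FPKM (SD, n = 2), a 1.90-fold difference, with -0.90 ± 0.38 (SE) as log2 fold change in edgeR. The gap between the groups, 1.42-fold from the lowest wild-type to the highest MST1-deficient library, was smaller than the 1.58-fold spread between the MST1-deficient libraries. Its 7552 bases are 1.90 times the longest GENCODE model of 3975 bases. An antisense gene and a microRNA gene overlap Slamf7 in GENCODE, and whether the reads were counted by strand was not given, so their reads could not be separated. The same limit holds for Vpreb3 and Tnfrsf13b, each overlapped by a pseudogene on the opposite strand.

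The other receptors of the Slam family gave no common direction. Slamf6 had 2.90 and 1.91 FPKM in wild type against 1.58 and 1.43 in MST1-deficient libraries, the order of Slamf7. Cd48 (7.33 and 9.35 against 8.57 and 12.4), Cd84 (8.30 and 4.47 against 8.34 and 2.46) and Cd244a (4.85 and 2.30 against 3.22 and 2.06) overlapped. No unannotated transcript of Slamf1, Slamf8, Slamf9 or Ly9 was listed.

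**Figure D3:**
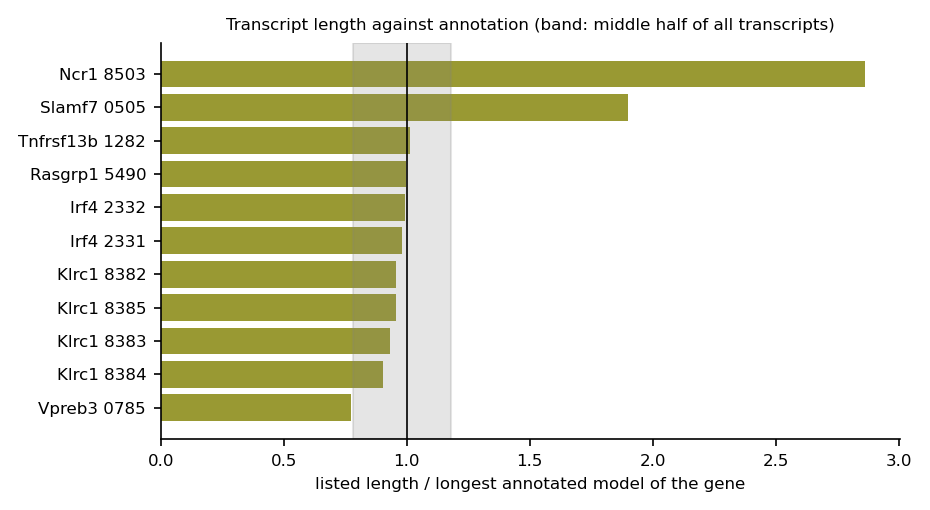
Length of each of the 11 transcripts divided by the longest GENCODE model of its gene (horizontal axis, linear from 0; labels give the gene and the last 4 digits of the transcript number). The grey band runs from the lower to the upper quartile of all listed transcripts compared; Ncr1 at 2.86 and Slamf7 at 1.90 lie above it and Vpreb3 at 0.772 just below.

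Irf4 (gene 16364, chromosome 13, 30749233 to 30766981) had 2 transcripts that were listed in different pools, and together in MST1-deficient library 2 alone. The form of 4680 bases, novel_T002331, had 0 and 1.34 FPKM in wild type against 0 and 0.81 in MST1-deficient libraries, so it was listed in both libraries numbered 2 and in neither numbered 1. The form of 4730 bases, novel_T002332, had 1.40 and 0 FPKM in wild type against 0.18 and 0.43 in MST1-deficient libraries. Of all listed transcripts, 1.33% shared the first pattern, that is, both libraries numbered 2 alone. The forms differ in length by 50 bases, and the share of the 4730-base form in the gene's FPKM was 100% in both libraries numbered 1, 0% in wild-type library 2 and 34.7% in MST1-deficient library 2.

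Summed over its forms, Irf4 had 1.40 and 1.34 FPKM in wild type against 0.18 and 1.24 in MST1-deficient libraries. The wild-type values lay close together although each came from a different form, and MST1-deficient library 1 alone was low. The lowest wild-type library was 1.08 times the highest MST1-deficient one. The edgeR log2 fold change of the sum was -0.76 (SE 1.03). Leaving out MST1-deficient replicate 1 gave 0.07, and leaving out replicate 2 of that group gave -2.92. Irf2 and Irf5, the other listed IRF genes, stayed at or under 0.62 FPKM in every library, and no unannotated transcript of Irf8, a factor of monocyte fate, was listed.

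Vpreb3 (gene 22364, chromosome 10, 75943024 to 75949657) differed most between the wild-type pools. Its transcript novel_T000785, the shortest of the 11 with 563 bases, had 29 and 2.58 FPKM in wild-type libraries 1 and 2 (98.2 and 8.18 counts) against 9.54 and 8.85 in MST1-deficient libraries (28 and 33 counts). The wild-type libraries differed 11.2-fold and the MST1-deficient ones 1.08-fold, and both MST1-deficient values lay between the wild-type ones. For the gene sum, edgeR gave -0.63 (log2 fold change, SE 1.12), which turned to 1.84 without wild-type replicate 1 and was -1.48 without wild-type replicate 2.

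Tnfrsf13b (gene 57916, chromosome 11, 61126283 to 61153170) was the most abundant and the most level member. Its transcript novel_T001282 had 30.4 and 25.3 FPKM in wild type (595 and 460 counts) against 30.6 and 27.6 in MST1-deficient libraries (520 and 580 counts). The means were 27.8 ± 3.61 and 29.1 ± 2.15 FPKM (SD, n = 2), with 0.13 ± 0.21 (SE) as log2 fold change in edgeR, and the difference was smaller than the spread within either group. Its summed level exceeded that of 96.1% of 5059 genes with unannotated transcripts. No unannotated transcript of Tnfrsf13c or Tnfrsf17, the other BAFF and APRIL receptors, was listed. Traf3, an adaptor below these receptors, had 0.67 and 1.76 FPKM against 3.29 and 1.69.

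The order of the summed levels, in FPKM and so per length, differed between the groups. In wild type the means ran from Tnfrsf13b (27.8) over Klrc1 (21.0), Vpreb3 (15.8), Rasgrp1 (6.34), Ncr1 (5.17) and Slamf7 (2.50) to Irf4 (1.37). The range of Vpreb3 overlapped those of both its neighbours, and those of Rasgrp1 and Ncr1 overlapped, while the other neighbours were apart. In MST1-deficient libraries Tnfrsf13b (29.1) was followed by Vpreb3 (9.20), Ncr1 (8.75), Klrc1 (4.16), Slamf7 (1.32), Irf4 (0.71) and Rasgrp1, which was not listed. There the ranges of Vpreb3 and Ncr1 overlapped, as did those of Slamf7 and Irf4, and the other neighbours were apart. Tnfrsf13b was highest in both groups by its mean, though Vpreb3 reached 29 FPKM in wild-type library 1.

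Vpreb3 shared its order of the wild-type pools with most B lineage genes. Of 28 genes in the list, 11 had unannotated transcripts and 8 were tested, Vpreb3 and Tnfrsf13b among them. All 8 were lowest in wild-type library 2, and 6 were highest in wild-type library 1, against 24.1% and 30.4% of the 3221 gene sums. Without the members, 6 of 6 were lowest in wild-type library 2 and 5 were highest in wild-type library 1. Pax5, the factor that commits cells to the B lineage, had 7.95 and 0 FPKM in wild type against 3.31 and 2.85 in MST1-deficient libraries. Spib, a transcription factor of B and dendritic cells, had 7.44 and 1.53 against 4.39 and 1.93, and Cd79a, a signalling chain of the B cell receptor, had 2.23 and 0.51 against 1.07 and 0.58. The summed FPKM of the list was 94.0 and 32.2 in wild type against 56.4 and 50.8 in MST1-deficient libraries.

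**Figure D4:**
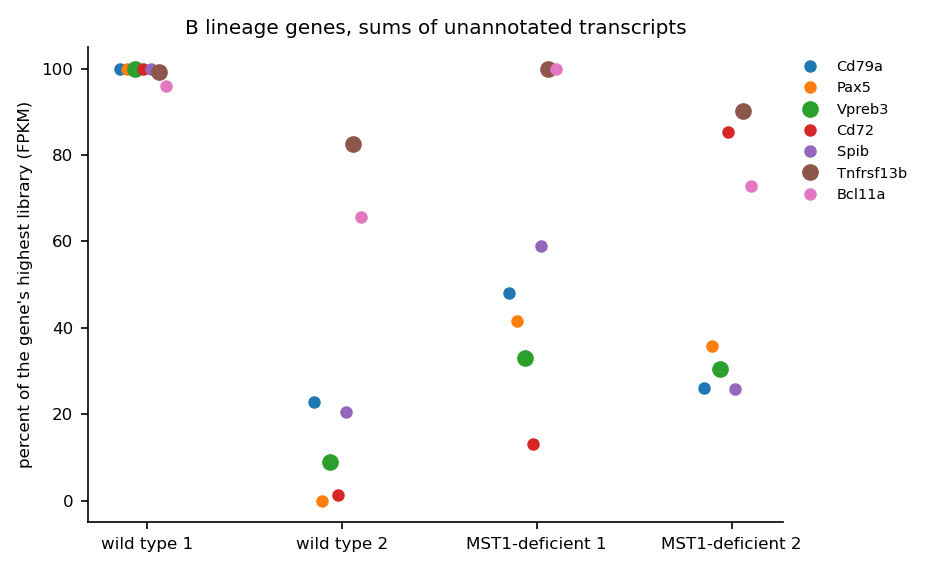
FPKM of 7 of the 8 tested B lineage genes in each library as a percent of the gene's own highest library (vertical axis, linear; larger points are Vpreb3 and Tnfrsf13b). Wild-type library 1 holds most of the highest values and wild-type library 2 the lowest, while Tnfrsf13b and Bcl11a vary less.

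Markers of another cell type moved with this pool pattern. Of 4 tested neutrophil genes, all 4 were highest in wild-type library 1 and 3 were lowest in wild-type library 2, with summed FPKM of 119 and 54.3 in wild type against 49.6 and 64.8 in MST1-deficient libraries. The B cell genes Cd79b, Ms4a1, Cd22 and Ighm had no unannotated transcript listed. The part of B or neutrophil lineage cells in these values was not tested.

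Of 35 NK and innate lymphoid genes, 15 were listed and tested, 0 were called, 4 had both MST1-deficient libraries lower without overlap and 2 had both higher. Over all gene sums the shares were 18.8% and 14.1%. The log2 fold change was below 0 for 12 of the 15 and above 0 for 3, with a median of -0.38, while 1574 of all 3221 gene sums were below 0 and 1647 above. The lower ones were Klrc1, Klrc3, Slamf7 and Klra9, and the higher ones were Ncr1 and Klrc2. Of these, Klrc1, Slamf7 and Ncr1 are members chosen on this contrast, so nothing is read from counts or a median that include them. Among the 12 tested genes without the members, Klrc3 and Klra9 lay lower and Klrc2 lay higher without overlap. Klra9, named here after its values were seen, encodes a Ly49 receptor and had 14.4 and 16.1 FPKM in wild type against 11.7 and 5.33 in MST1-deficient libraries. Klrb1c, the gene of the NK marker NK1.1, had 11.5 and 0.78 FPKM in wild-type against 3.56 and 0 in MST1-deficient libraries. Prf1, the pore-forming protein of killer cells, had 3.78 and 5.62 against 7.03 and 2.03. MST1-deficient library 2 held the lowest value of 9 of the 15 genes, where it held the lowest of 39.3% of all gene sums. The summed FPKM was 194 and 260 in wild type against 190 and 120 in MST1-deficient libraries. The NK genes Eomes, Tbx21, Gzma, Gzmb, Nkg7 and Ccl5 had no unannotated transcript listed.

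**Figure D5:**
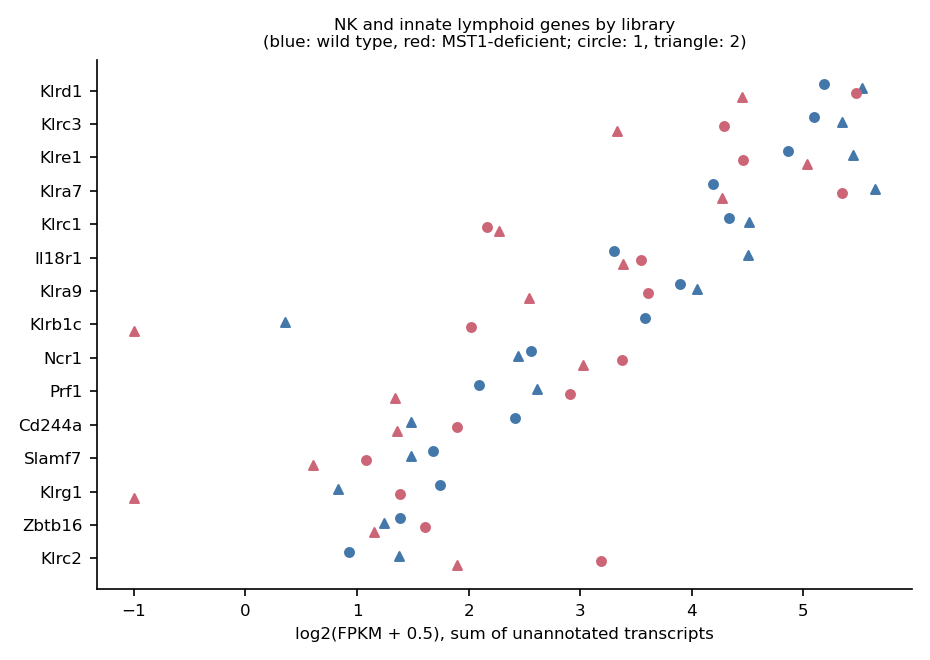
log2(FPKM + 0.5) of the summed unannotated transcripts (horizontal axis) of the 15 tested NK and innate lymphoid genes in wild-type (blue) and MST1-deficient (red) libraries, with circles for library 1 and triangles for library 2. Klrc1 and Klrc3 have both red points left of both blue ones, Ncr1 and Klrc2 have them to the right, and most other genes overlap.

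In the plasma cell list 3 of 12 genes were tested, and all 3 had both MST1-deficient libraries lower, as had 18.8% of all gene sums. Of these, Slamf7 and Irf4 are members chosen on this contrast, which leaves Tent5c. Tent5c, a poly(A) polymerase of plasma and red cells, had 5.78 and 4.85 FPKM in wild type against 2.01 and 0.95 in MST1-deficient libraries. The T cell list had 2 tested genes of 28. Besides Rasgrp1 this was Tcf7, a factor of early T cells, with 5.13 and 7.35 FPKM against 6.53 and 3.37. The T cell receptor genes Cd3d, Cd3e, Trac, Trbc1 and Trbc2 had no unannotated transcript listed, and Cd3g was listed in MST1-deficient library 1 alone, at 0.25 FPKM. In the plasmacytoid and dendritic list 3 of 16 genes were tested, and besides Irf4 the factor Tcf4 had no overlap, with 3.87 and 3.43 FPKM in wild type against 6.55 and 4.75 in MST1-deficient libraries.

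Together the B, plasma, T and NK lists held 101 genes, of which 35 were listed and 27 tested. None was called with edgeR, where 0 of 3221 gene sums passed. Without overlap, 7 of 27 were lower and 2 higher in MST1-deficient cells. Without the 7 members, which were chosen on this contrast, 3 of 20 were lower and 1 higher, where 18.8% of all gene sums were lower and 14.1% higher. The median log2 fold change of these 20 genes was -0.35, against 0.01 over all gene sums. The pooled SD of the list median, in log2 units, was 0.756 and so larger than this shift. Leaving out wild-type replicate 1 gave -0.14 for these 20 genes, and leaving out wild-type replicate 2 gave -0.70. Leaving out MST1-deficient replicate 1 gave -0.66, and leaving out replicate 2 of that group gave -0.25. With the members the median was -0.41, and the pooled SD of 0.562 was again larger. Leaving out wild-type replicate 1 or 2 then gave -0.42 or -0.75. Leaving out MST1-deficient replicate 1 or 2 gave -0.64 or -0.41. All 4 tested genes of eosinophils, basophils and mast cells lay lower without overlap, as did 18.8% of all gene sums, with summed FPKM of 152 and 191 in wild type against 114 and 127 in MST1-deficient libraries. Erythroid genes had 29.4 and 65.9 against 36.6 and 13.6, lowest in MST1-deficient library 2. The part of such other cells in the lymphoid values was not tested.

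Of 50 genes that signal below or beside the 7 members, 26 were listed, 15 tested and 0 called, with a median log2 fold change of -0.04. Without overlap 2 were higher in MST1-deficient cells (Rasgrp2 and Prkcd) and 1 lower (Slamf6), where all gene sums gave 14.1% and 18.8%. Prkcd, a diacylglycerol-dependent protein kinase C, had 7.38 and 7.05 FPKM in wild type against 20.3 and 12.8 in MST1-deficient libraries. Dgka and Dgkz, kinases that remove the diacylglycerol on which RasGRP proteins depend, had 13.4 and 9.26 against 11.8 and 3.46 and 49 and 45.3 against 57.2 and 39.2. Map2k2, a kinase of the pathway below Ras, had 41.0 and 41.9 against 34.2 and 41.9. The adaptors of NK receptors Fcer1g, Tyrobp and Hcst had no unannotated transcript listed.

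For each member, the genes with the most similar profile over the 4 libraries were found by the distance between log2(FPKM + 0.5) values centred on each gene's mean, among 3221 gene sums. For Vpreb3 those nearest included Rnf135 (distance 0.363) and Kdm4b. For Rasgrp1 they were Armc6 (0.247), Slc43a1 and Klhl12, and for Klrc1 they were Col5a1 (0.311), Ncf4 and Dnah8. For Ncr1 they were BC055324 (0.0359), Dyrk1a and Cdk5rap3, and for Slamf7 they were Ttc3 (0.0427), Ccdc77 and Ide. Camta1 (0.030), Cyren and Chd4 were nearest to Tnfrsf13b, and Tmco3 (0.146), Chil5 and Nudt9 to Irf4. None of the genes named here as nearest was in a lymphoid list.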

How the data were processed

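The submitters' processing notes name the genome build mm10; how reads were aligned, assembled and quantified is not given by the sources used here. For each library the authors deposited 2 values of every unannotated transcript: estimated counts without normalisation and, per the file headers, FPKM. Both were read as deposited, and a transcript missing from a library's list was set to 0. PCR copies were not marked, so the floor of 3 counts covers counting error only. Of 5059 annotated genes, 5051 matched a symbol in a RefSeq table of GRCm38.p6; model lengths, exons and 31-base words came from GENCODE release M21 of the same build.

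All transcripts, and the sum of the transcripts of each annotated gene, were tested between the groups in R 4.3.3 with the 2-sided quasi-likelihood test of edgeR 4.0.16, with TMM factors, after rounding the estimated counts. A feature was tested if it reached 1 FPKM in 2 or more libraries, with Benjamini-Hochberg adjustment over all tested features. An SE is the log2 fold change divided by the root of the F statistic. The code was tested on simulated data with a preset spread, not that of these libraries, and changes among the more abundant features alone, so it gives no estimate of the power here. P-values measure the spread between 2 pools per group, which may be partly technical. Alternatives were DESeq2 1.42.0, limma 3.58.1 on log2(FPKM + 0.5) and with pseudocounts of 0.1 and 1, other size factors and filters, a replicate block, and leaving out each library.

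The members and gene lists were chosen with earlier results of these data known. Named were all members, up to 3 genes a list and direction with the largest fold change among tested genes without overlap, the 3 nearest profiles of each member, and their close relatives; other list genes were named after their values were seen. An item that this rule names is not reported here.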

Additional observations from a re-analysis of the deposited data

How the results depend on the processing

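No transcript and no gene sum was called with edgeR under RLE size factors, no scaling factor, no filter, the replicate block (0 and 0), or without any 1 of the 4 libraries (0 in each). An FPKM of at least 1 in all 4 libraries gave 2 transcripts and 2 gene sums. DESeq2 called 103 transcripts and 46 gene sums, and limma called 6 and 6 with a pseudocount of 0.5, 4 and 2 with 0.1, and 6 and 7 with 1. The cause of these differences was not tested. The labels number the libraries 1 and 2 in each group but name nothing that a number shares; deviations of same-numbered libraries correlated at 0.127 over gene sums. The median over the lymphoid lists lay between -0.75 and -0.32, but those 27 genes include the members chosen on this contrast; for the 20 others, an alternative chosen after seeing the data, it lay between -0.70 and -0.14. The log2 fold changes of Rasgrp1, Klrc1, Slamf7, Ncr1 and Tnfrsf13b sums kept their sign under the edgeR alternatives and in ratios of FPKM. Neither the members' fold changes nor the list medians were compared under DESeq2 or limma. As the members were chosen on this contrast in these libraries, nothing further is read from a kept sign. For Vpreb3 the sign changed with the replicate block (0.10), without wild-type replicate 1, and with the libraries numbered 2 alone (1.60), an alternative chosen after seeing the data; for Irf4 it changed without MST1-deficient replicate 1. The minor Klrc1 forms also changed sign: novel_T008384 was 0.61 with all libraries and -0.39 without wild-type replicate 1 (sign changed under 3 of 13 alternatives), and novel_T008383 was -0.96 and 0.05 without MST1-deficient replicate 2. Some values rest on few counts, as 5.61 counts for Irf4 in MST1-deficient library 1 and 8.18 counts for Vpreb3 in wild-type library 2. Because FPKM is per length, the same FPKM can rest on few or many counts.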
